A study of Mus musculus with 2 samples.

Results

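Neutrophils were studied in whole lung of female BALB/c mice by single-cell RNA sequencing. They were the droplets chosen by the transcripts they carried: at least 3 summed unique molecular identifiers (UMIs, 1 per captured RNA molecule) of Csf3r, Cxcr2, Il1r2, Retnlg and Trem1, at least 2 of these genes detected, S100a8 plus S100a9 at 5% of UMIs or more, and no UMI of Cd79a, Cd3e, Cdh5, Epcam or Col1a2. The rule selected 1153 of 15695 cells (7.35%), 155 from the library of control media (CM) and 998 from the library of tumor conditioned media (TCM). Both groups of mice were 9 to 10 weeks old and had been injected intravenously for 3 weeks. TCM was serum-free medium in which pieces of 4T1 tumors (a mouse breast cancer line) had been kept, and CM was the same medium kept without tumor. Each group had 1 library, and the sources used here do not state how many mice went into it, so nothing below was tested against the spread between mice. Intervals are 95% intervals that cover counting error only.

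Neutrophils are short-lived granulocytes of the bone marrow. They fill their granules in a fixed order while they mature: azurophil granules (myeloperoxidase, elastase) in promyelocytes, specific granules (lactoferrin, cathelicidin) in myelocytes, and gelatinase granules late, once division has stopped. Cxcr2 drives their release into blood and Cxcr4 holds them in marrow; with age in the circulation they regain Cxcr4. In lung they are held in capillaries in large numbers, and on activation they produce interleukin 1 beta and chemokines such as Cxcl2.

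The 2 libraries held 31944151 (CM) and 36648719 (TCM) UMIs. CM neutrophils had a median of 1394 UMIs (531 to 10100) and 602 genes per cell, and TCM neutrophils 1717 UMIs (504 to 7534) and 654 genes, with 242339 and 1835256 UMIs in all. The libraries shared 93 cell barcodes, and 1 of these was a neutrophil in both. RNA from outside the droplet was estimated at 119 UMIs per CM and 258 per TCM neutrophil, or 7.60% and 14.0% of their UMIs, though single genes gave 0 to 182 UMIs in CM and 104 to 436 in TCM. The surfactant gene Sftpc, which neutrophils do not express, stood at 112 and 242 CP100k (UMIs per 100000 UMIs of all neutrophils of a library) and was found in 126 of 155 and 969 of 998 of them. In other leukocytes Sftpc was higher in CM: 836 and 187 CP100k in T cells, 729 and 369 in B cells, 632 and 236 in monocytes. Droplets of at most 50 UMIs held 696980 UMIs in CM and 431071 in TCM. Why the direction differed between cell types was not tested.

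The sequences before the start sites of some genes named below are given first. The groups they belong to (activation, interferon response, granules) are described by these letters too. Apart from Wfdc17, Prok2 and Ngp, the genes printed are not among the largest changes. Each line is the strand of the gene, from GRCm38.p6 (RefSeq promoter table), ending where the first annotated start of the gene begins. Capitals mark matches on either strand to GGG, any 2 bases, TTTCC (NF-kB; Cxcl2, Nfkbia), to TTTC, any 2 bases, TTTC (interferon-stimulated response element; Rsad2, Isg15, where 3 matches overlap) or TTGCNNAA (C/EBP; Ngp). Wfdc17 and Prok2, both among the 10 genes with the largest increases, held none of these and no match to TTCNNNGAA (STAT) in the 300 bases around their start. The same held for Lrg1, Ifitm1, Il1b, Ccl3 and Camp, whose sequences are not printed. Of the 10 largest increases, 9 were in the promoter table, and only Steap4 held a match.
Wfdc17, chr11:83703841-83703990, + strand: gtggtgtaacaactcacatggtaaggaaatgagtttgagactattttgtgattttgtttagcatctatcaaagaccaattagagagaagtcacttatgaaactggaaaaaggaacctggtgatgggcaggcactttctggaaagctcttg
Prok2, chr6:99726393-99726542, - strand: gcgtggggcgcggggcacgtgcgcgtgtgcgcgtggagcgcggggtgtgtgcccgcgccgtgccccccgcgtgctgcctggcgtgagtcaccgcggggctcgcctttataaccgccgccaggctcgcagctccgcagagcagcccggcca
Cxcl2, chr5:90903721-90903870, + strand: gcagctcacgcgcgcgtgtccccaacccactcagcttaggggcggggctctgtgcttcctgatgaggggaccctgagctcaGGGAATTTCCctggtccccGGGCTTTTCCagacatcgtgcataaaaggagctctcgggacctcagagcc
Nfkbia, chr12:55492648-55492797, - strand: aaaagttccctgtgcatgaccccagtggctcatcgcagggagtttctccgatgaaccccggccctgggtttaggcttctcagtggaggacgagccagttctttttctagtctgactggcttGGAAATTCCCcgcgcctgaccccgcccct
Rsad2, chr12:26456453-26456602, - strand: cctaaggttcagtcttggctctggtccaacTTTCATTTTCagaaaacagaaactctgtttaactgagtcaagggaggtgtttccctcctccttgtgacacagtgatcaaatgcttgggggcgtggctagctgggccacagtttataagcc
Isg15, chr4:156200819-156200968, - strand: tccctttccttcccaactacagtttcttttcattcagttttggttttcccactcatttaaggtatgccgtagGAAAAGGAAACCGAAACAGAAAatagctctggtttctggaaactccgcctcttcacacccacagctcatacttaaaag
Ngp, chr9:110419597-110419746, + strand: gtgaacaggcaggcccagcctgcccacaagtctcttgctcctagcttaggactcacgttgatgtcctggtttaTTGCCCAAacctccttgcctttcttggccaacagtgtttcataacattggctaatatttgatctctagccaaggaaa

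The NF-kB letters were found for 5 of the 17 genes of the inflammatory activation list that were in the promoter table (Il1rn, Cxcl2, Cxcl3, Nfkbia and Tnfaip3), against 1.9% of 27025 genes in that table. The interferon letters were found for 11 of 21 genes of the interferon list against 3.99%, and the C/EBP letters for 5 of 10 specific granule genes (Ltf, Ngp, Lcn2, Fcnb and Anxa1) against 12.2%. Among genes with a mean of at least 5 CP100k over both libraries, the shares were 2.91% (NF-kB), 5.25% (interferon) and 11.3% (C/EBP). The lists were counted whole, with genes hardly seen in these cells, such as Cxcl10 and Fcnb, included. They were drawn up from genes known for these groups, so the shares describe the lists and are no finding about these cells. A match is a description of the letters and not a site of binding.

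The first question was what share of the cells of each library the neutrophils made up. They were 155 of 7988 CM cells (1.94%, 1.65 to 2.27%) and 998 of 7707 TCM cells (12.9%, 12.2 to 13.7%), a ratio of shares of 6.67 (5.63 to 7.96). A share of cells can move with the recovery of every other lung cell, which cannot be told apart from a change in neutrophils here. Against cells that had a Ptprc UMI (CD45, the pan-leukocyte antigen) or were neutrophils by the rule, the ratio was 4.86. With at least 10% of UMIs required from S100a8 and S100a9 it was 8.52.

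The conditions of the rule removed different shares of the candidates in the libraries. Of droplets that met both marker conditions, 119 of 288 (41.3%) fell below the S100 limit in CM and 513 of 1657 (31.0%) in TCM. The lineage genes then removed 14 of 169 (8.28%) and 146 of 1144 (12.8%). The S100 share just inside the limit was 5% in CM and 5.02% in TCM, and just outside it 4.94% and 4.99%. Between 5 and 6% lay 17 CM and 52 TCM neutrophils.

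The genes used for the choice describe the cells and are no finding. S100a8 and S100a9, the subunits of calprotectin, took a median of 11.1% of a CM neutrophil's UMIs (5 to 32.8%) and 16.3% of a TCM neutrophil's (5.02 to 36.3%). Csf3r, the receptor of granulocyte colony-stimulating factor, stood at 143 CP100k in CM and 146 in TCM. Cxcr2 stood at 88.7 and 134, the decoy receptor Il1r2 at 246 and 320, and the amplifying receptor Trem1 at 195 and 212. Retnlg, a resistin-like secreted protein of granulocytes, stood at 530 and 1010 CP100k.

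Genes that the rule did not use fitted the name. All 14 genes of a neutrophil identity list passed the level limit used throughout, a mean of at least 5 CP100k over both libraries. This limit alone does not tell cell types apart, since all 6 genes of the epithelial list below passed it too. Il1b, Cxcl2, G0s2 (an inhibitor of lipolysis), Msrb1 and Hdc (histamine synthesis) were each above 200 CP100k in both libraries. Slpi (23.5 and 30.2) and Cd300ld (12.4 and 10.6) of the same list were low. Ly6g, the surface antigen used to sort mouse neutrophils, was low at 29.3 and 26.8 CP100k, with a UMI in 20 of 155 and 242 of 998 cells. Without the granule cells described below it stood at 8.21 and 25.9 CP100k. Defining genes of other cells were near 0: the monocyte and macrophage list of 12 genes summed to 19.0 and 23.5 CP100k, with C1qa, Ccr2 and Adgre1 at 0 in CM. The eosinophil, basophil and mast cell genes Epx, Prg2, Mcpt8, Cpa3 and Fcer1a were at 0 in both. Class II genes (4) summed to 25.6 and 25.7 CP100k, T and NK genes (8) to under 15 CP100k in each, and B and plasma genes (6) to 4.54 and 8.34. The epithelial list of 6 genes was the exception, at 576 and 832 CP100k, most of it Scgb1a1 and Sftpc. Of its genes, 3 were at least 2-fold higher in TCM, against 5.6% of all genes compared. Endothelial (22.3 and 28.7), stromal (23.9 and 12.6) and erythroid and platelet genes (2.48 and 3.00 CP100k) were low.

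Of 1983 genes past the level limit, 111 were at least 2-fold higher in TCM (5.6%) and 187 at least 2-fold lower (9.43%), and the median log2 ratio was -0.17. Ratios were below 0 for 1251 genes (63.1%) and above 0 for 732 (36.9%), and the counts for gene lists below are to be read against these shares. Wfdc17, a small secreted protein of the WAP family made by activated macrophages, was 24.5-fold higher. Lrg1, a secreted leucine-rich glycoprotein that neutrophils store, was 7.38-fold higher, and Ifitm1, an interferon-inducible membrane protein, 4.74-fold. In absolute level the largest increases outside the genes of the rule were those of Fth1 (ferritin heavy chain), Lrg1, Wfdc17, Srgn (the granule proteoglycan serglycin) and Ifitm1.

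**Figure D1:**
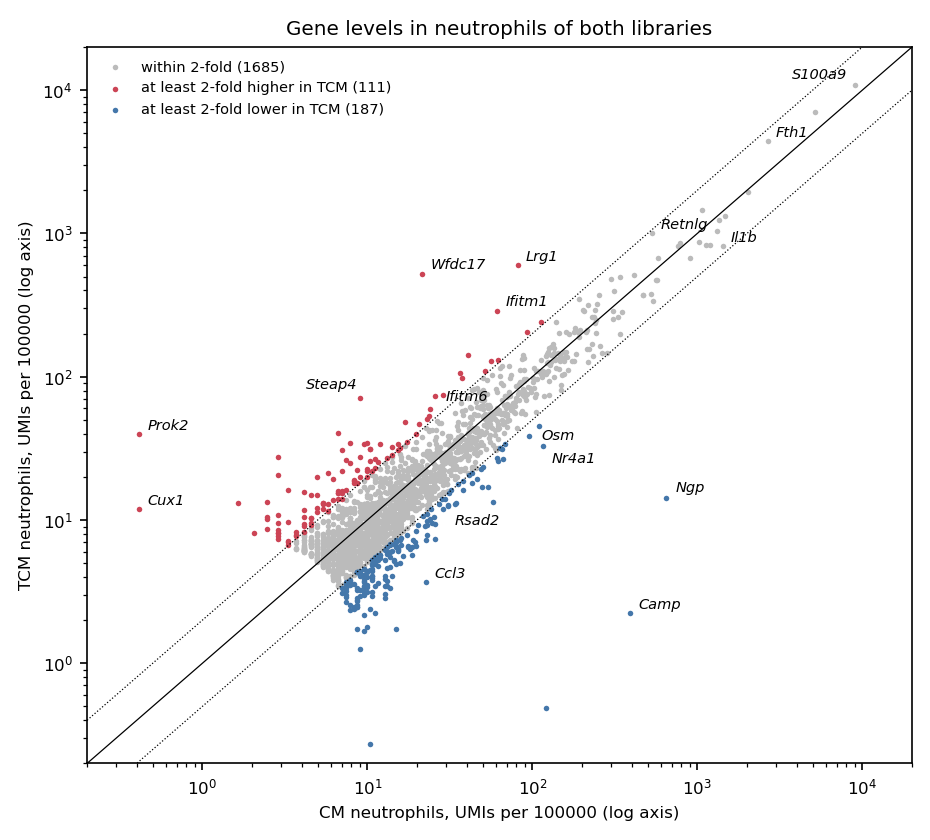
Levels of the 1983 genes past the limit in CM (horizontal) and TCM (vertical) neutrophils, in UMIs per 100000 UMIs, both axes logarithmic. Each point is a gene, the solid line marks equal levels and the dotted lines 2-fold differences. Wfdc17, Prok2 and Lrg1 lie far above the band, and Camp and Ngp far below it.

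Wfdc17 (chromosome 11, 83703991 to 83706268 on the + strand) was nearly absent from CM neutrophils, with a median of 0 UMIs per cell and a highest value of 9. In TCM the median was 5 and the highest 90. Over all cells it had 52 UMIs in 24 of 155 CM cells and 9631 UMIs in 817 of 998 TCM cells (21.5 and 525 CP100k, log2 ratio 4.61, 4.22 to 5.03). After each cell had been thinned to 500 UMIs, 17 of 155 CM neutrophils (interval of the share 6.52 to 17.0%) and 666 of 998 TCM neutrophils (66.7%, 63.7 to 69.7%) had a UMI of it, against 0% and 1.53% of T cells. Those T cells, 716 CM and 524 TCM cells, were chosen by Cd3e, Cd3d, Cd3g and Trac and by fewer than 3 summed UMIs of the neutrophil markers. The monocytes and B cells below had the same limit, so all were low in these markers by choice. T cells served as comparison cells, though some genes were found in them too. After thinning, 6.84% of CM T cells and 9.68% of CM neutrophils had a Hif1a UMI. Thinning left out none of the neutrophils.

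Levels of Wfdc17 in other leukocytes were further apart from TCM neutrophils than from CM neutrophils. Classical monocytes, chosen by Ccr2, Ly6c2, F13a1 and Ms4a6c (167 CM and 300 TCM cells), held 29.6 CP100k (26.3 to 33.2) in CM and 54.6 (51.2 to 58.1) in TCM. The interval of CM neutrophils, 16.0 to 28.1 CP100k, overlapped that of CM monocytes. In TCM, neutrophils stood at 525 CP100k (514 to 535), above the monocytes. B cells had 2.56 and 5.65 CP100k, and T cells 0.571 and 2.30.

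Prok2, the secreted peptide prokineticin 2, had a single UMI in CM neutrophils and 732 UMIs in 213 of 998 TCM neutrophils (0.413 and 39.9 CP100k). With so few CM counts its log2 ratio of 6.59 had an interval of 4.11 to 11.9. Thinned to 500 UMIs, 0 of 155 CM neutrophils and 12.1% of TCM neutrophils (10.2 to 14.3%) had a UMI, where the exact interval of the CM share reached 2.35%. Monocytes had 0 UMIs of it in CM and 4 in TCM, and T cells 0 and 2.

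Lrg1 had a median of 0 UMIs per CM cell (highest 18) and 9 per TCM cell (highest 59). Its 197 UMIs in 67 CM cells and 11009 UMIs in 971 TCM cells gave 81.3 and 600 CP100k and a log2 ratio of 2.88 (2.68 to 3.09). In monocytes it stood at 1.43 and 6.24 CP100k. Steap4, a metalloreductase of iron and copper, stood at 9.08 and 71.5 CP100k (2.98, 2.37 to 3.66), with a UMI in 18 CM and 539 TCM cells.

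The other genes among the 10 with the largest increases were low in CM. Cux1, a homeobox factor, had 1 UMI in CM and 220 in 191 TCM cells (log2 ratio 4.86, 2.37 to 10.2). Atp6v0a1, a subunit of the proton pump of endosomes and lysosomes, had 7 and 507 UMIs (3.26). Igfbp6, which binds insulin-like growth factors, had 4 and 241 (2.99), and Upp1 (uridine phosphorylase) 16 and 739 (2.61). Arhgap24, a GTPase-activating protein, had 6 and 243 UMIs (2.42). Stfa2, a stefin that inhibits cysteine proteases, had 7 and 376 UMIs (2.83), but its reads may be shared with near-identical stefin genes. All 10 stayed at least 2-fold higher under each of the 13 alternatives computed for them, subtraction of outside RNA included.

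The 10 genes with the largest decreases, among those seen in at least 10 CM cells, began with Camp (cathelicidin, log2 ratio -7.46, -7.95 to -7.01) and Ngp (neutrophilic granule protein, -5.49, -5.69 to -5.30). Ccl3, the chemokine MIP-1 alpha, followed among the better counted ones with 55 UMIs in 21 of 155 CM cells and 68 UMIs in 41 of 998 TCM cells (-2.61, -3.15 to -2.08). Pttg1 (securin) stood at -2.86, Fbxo31 at -2.49, and Pmaip1, the proapoptotic protein Noxa, at -2.46. Twf2 (an actin-binding twinfilin), Mbp, Vamp5 and Map3k5 (a stress-activated kinase) lay between -2.32 and -2.12. Each of these 8 had 21 to 55 UMIs in CM.

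Maturity was described through the granule genes. No azurophil gene passed the level limit: Mpo, Elane, Ctsg and Bpi were at 0 in both libraries, and Prtn3 had 1 and 4 UMIs. Of the 9 specific granule genes that passed, 6 were at least 2-fold lower in TCM and none higher, against 9.43% and 5.6% of all genes. Their median log2 ratio was -1.79 against -0.17 for all genes. Ltf (lactoferrin) had 294 UMIs in CM and 9 in TCM (-7.95), Chil3 36 and 32 (-3.09), Olfm4 62 and 136 (-1.79), and Cybb, the catalytic subunit of the oxidase, 47 and 129 (-1.46). Lcn2 (lipocalin 2) went the other way, from 217 to 316 CP100k (0.54, 0.41 to 0.67). Gelatinase granule genes showed no such difference: none of 8 was past 2-fold, with Mmp9 at 55.7 and 61.3 CP100k and Mmp8 at 40.4 and 71.1.

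A few CM cells carried these transcripts. With a limit of 1% of UMIs from Camp, Ltf and Ngp, 8 of 155 CM neutrophils (5.16%, 2.25 to 9.92%) and 2 of 998 TCM neutrophils (0.200%, 0.0243 to 0.722%) passed. The 8 CM cells held 98.7% of the library's Camp UMIs in neutrophils, 98.1% of Ngp and 99.3% of Ltf. Their granule share ran from 1.33 to 15.7% of UMIs and their depth from 1617 to 10100 UMIs. No UMI of Wfdc17 was found in any of them, and Il1b in 3 of 8 (4, 11 and 7 UMIs). The cell of 10100 UMIs was the only CM neutrophil with Mki67 (6 UMIs) or Top2a (12 UMIs), genes of dividing cells.

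**Figure D2:**
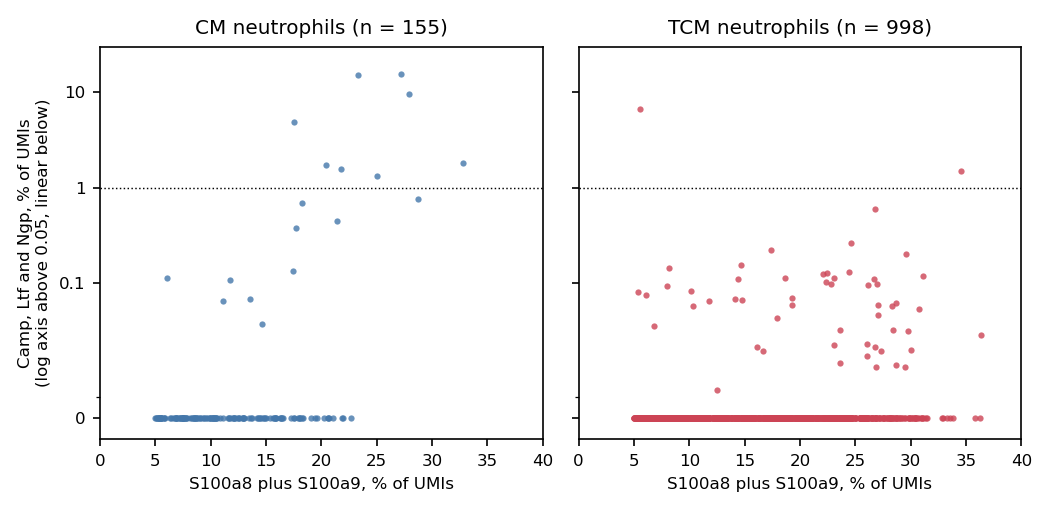
Each point is a neutrophil, CM left (155 cells) and TCM right (998 cells), placed by the share of its UMIs from S100a8 plus S100a9 (horizontal) and from Camp, Ltf and Ngp (vertical, logarithmic above 0.05% and linear below). The dotted line is the 1% limit, with 8 CM and 2 TCM cells above it.

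Without those 10 cells, which held 14.6% of CM and 0.348% of TCM neutrophil UMIs, 5 of the 9 genes still passed the level limit, with a median log2 ratio of 1.05. Over the same 9 genes the median was also 1.05, with 4 of them (Camp, Ltf, Ngp and Anxa1) still below 0. In the remaining cells Ngp stood at 14.0 CP100k in CM and 5.58 in TCM, Camp at 5.80 and 0.219, Lcn2 at 87.4 and 309, Olfm4 at 0.966 and 7.44, and Anxa1, which limits neutrophil recruitment, at 94.2 and 80.4. With droplets that had a UMI of any of 12 further lineage genes also left out, the granule share was 2.02% in CM and 0% in TCM, and the median of the list -0.055. Outside the neutrophils, 4 CM and 2 TCM cells also passed the 1% limit.

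The mature surface list held receptors, adhesion genes and Mxd1, whose product is not on the surface. Of its 14 genes, 10 had a log2 ratio above 0 (36.9% of all genes did). The 1 gene past 2-fold, against 5.6% of all genes, was Ltb4r1, the receptor of leukotriene B4, which went from 9.08 to 19.9 CP100k (1.14, 0.52 to 1.83). Their median was 0.56. The formyl peptide receptors Fpr1 and Fpr2 went from 24.8 to 42.4 and from 11.1 to 20.3, and the Fc receptor Fcgr3 from 23.5 to 42.4. Ptafr, the receptor of platelet-activating factor, was lower (-0.78, -1.11 to -0.44), and Ly6g differed by less than its counting interval (-0.13, -0.49 to 0.25), with ratios from -0.51 to 1.66 over the 13 alternatives, the highest without the granule cells.

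Of 7 measured genes known to mark aged neutrophils, 3 were at least 2-fold lower (9.43% of all genes were) and none at least 2-fold higher. Their median log2 ratio was -0.99, and 5 of 7 were below 0, against 63.1% of all genes. Itga4, the alpha 4 integrin, had 12.8 CP100k in CM and 5.23 in TCM (-1.29, -1.89 to -0.66), and Icam1 13.2 and 5.78 (-1.19, -1.78 to -0.57). Cxcr4 had 78 UMIs in 51 of 155 CM cells and 295 UMIs in 233 of 998 TCM cells (32.2 and 16.1 CP100k, with a log2 interval of -1.37 to -0.62). Cd24a stood at 45.8 and 23.1 CP100k (-0.99), while Tlr4 (0.04) and Cd63 (0.26) did not follow. After thinning, 18.7% of CM (12.9 to 25.8%) and 7.62% of TCM neutrophils (6.05 to 9.44%) had a Cxcr4 UMI. Cxcr4 passed 2-fold in 7 of 13 alternatives, and its ratio ran from -1.41 to -0.65. Of 12 clock genes only Per1 and Bhlhe40 passed the level limit, at log2 ratios of 0.06 and 0.21.

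Of 19 inflammatory activation genes past the limit, 15 had a ratio below 0, against 63.1% of all genes. Of the same 19, 5 were at least 2-fold lower (Ccl3, Tnfaip3, Osm, Icam1 and Ptgs2) and 1 at least 2-fold higher (Cxcl3), against 9.43% and 5.6% of all genes. The median was -0.65. Il1b, the most abundant of them, had a median of 19 UMIs per CM cell (0 to 80) and 11 per TCM cell (0 to 95), or 1421 and 813 CP100k (-0.81, -0.86 to -0.75). Without the granule cells, which held 22 of its 3443 CM UMIs, the log2 ratio was -1.02. After thinning, 93.5% of CM and 90.4% of TCM neutrophils had a UMI, shares too near the maximum to show a difference in level.

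Cytokines and their feedback genes moved by different amounts. Osm (oncostatin M) stood at 95.3 and 38.6 CP100k (-1.30, -1.52 to -1.08) and Tnfaip3, the NF-kB inhibitor A20, had 82 UMIs in 42 CM cells and 238 UMIs in 147 TCM cells (-1.38). Ptgs2 (cyclooxygenase 2) stood at 50.3 and 23.4 (-1.10). Nfkbia, another inhibitor of NF-kB, stood at 258 and 165 (-0.65) and the atypical chemokine receptor Ccrl2 at 265 and 146 (-0.86, or -1.07 without the granule cells). Cxcl2 was 1193 and 836 CP100k (-0.51, -0.57 to -0.45). Its relative Cxcl3, which carries the same promoter letters, was higher, at 28.9 and 74.2 (1.36, 1.01 to 1.73), as was the lipopolysaccharide coreceptor Cd14, at 341 and 497 (0.54).

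Immediate early and heat shock genes, which also respond to tissue dissociation, were on the lower side. The 15 past the limit all had ratios below 0 (63.1% of all genes did), with a median of -0.53, and Atf3 (-1.67), Fosb (-1.27) and Egr1 (-1.08) were at least 2-fold lower, against 9.43% of all genes. Fos stood at 283 and 147 CP100k (-0.95) and Dusp1 at 538 and 339 (-0.67). Nr4a1, an orphan nuclear receptor of the same kind that was picked out after its values were seen, stood at 117 and 32.8 CP100k (-1.83, -2.04 to -1.62), with a UMI in 41.3% of CM and 14.2% of TCM neutrophils after thinning. The part of dissociation in the lower activation genes was not tested. Glucocorticoid response genes, by contrast, had a median of -0.12. None of 6 was past 2-fold, where 5.6% of all genes were higher and 9.43% lower.

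**Figure D3:**
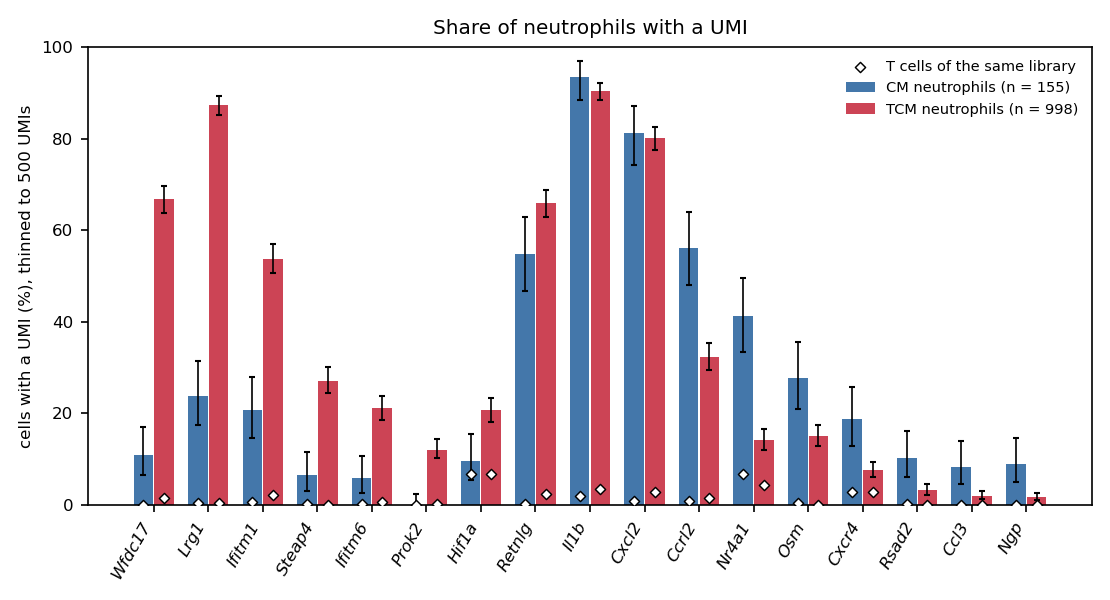
Share of neutrophils with at least 1 UMI of each gene (percent) after each cell was thinned to 500 UMIs, CM blue and TCM red, with exact 95% binomial intervals as error bars. Diamonds give T cells of the same library. Lrg1 and Ifitm1 were found in 23.9% and 20.6% of CM and in 87.3% and 53.8% of TCM neutrophils.

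The interferon response list split. Of 14 genes past the limit, 4 were at least 2-fold higher and 1 at least 2-fold lower, against 5.6% and 9.43% of all genes. The median was -0.05. The increases were those of the membrane proteins Ifitm1 (61.1 to 290 CP100k; 2.24, 2.01 to 2.49; 148 UMIs in 48 CM cells and 5313 UMIs in 722 TCM cells), Ifitm6 (25.6 to 72.9; 1.51) and Ifitm3 (93.3 to 206; 1.14), and of the GTPase Gbp2 (9.90 to 34.3; 1.79, 1.20 to 2.44). Ifitm genes resemble each other in sequence, so reads could be divided among them. Rsad2 (viperin, an antiviral enzyme) was lower, with 75 UMIs in 31 CM cells and 230 UMIs in 85 TCM cells (-1.30, -1.69 to -0.91). Isg15, the ubiquitin-like protein whose promoter holds 3 overlapping matches, stood at 243 and 203 CP100k (-0.26), and Ifit1 at 6.19 and 4.47 (-0.47). Irf7, Slfn1, Slfn5 and Oasl1 lay between -0.20 and -0.03.

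Transcripts of several antiviral genes were found in some cells. Whether they sat together more often than their levels imply was not tested. At least 2 of Rsad2, Ifit1, Ifit2, Ifit3, Ifit3b and Cmpk2 were found in 14 of 155 CM neutrophils (9.03%, 5.03 to 14.7%) and 43 of 998 TCM neutrophils (4.31%, 3.14 to 5.76%). Thinned to 500 UMIs, the shares were 3.87% (1.43 to 8.23%) and 1.30% (0.70 to 2.22%), and these intervals overlap.

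Genes linked to suppressive myeloid cells did not move as a block. Of 14 past the limit, 3 were at least 2-fold higher and 2 at least 2-fold lower, against 5.6% and 9.43% of all genes, and their median was 0.09. The increases were Prok2, Wfdc17 and Il4ra, the interleukin 4 receptor (8.25 to 18.2 CP100k; 1.14, 0.49 to 1.87). The decreases were Ptgs2 and Tgfb1 (16.1 to 7.46; -1.11, -1.63 to -0.56). Arg1 (arginase 1) had 0 UMIs in 155 CM and 998 TCM neutrophils, and Slc27a2, a fatty acid transporter, likewise. Nos2 had 0 UMIs in CM and 15 in TCM, Ptges 0 and 4, and Cd274 (PD-L1) 14 and 69, which left all 3 below the limit. Arg2 (83.4 and 88.7), Clec4e (113 and 105) and Cebpb (1018 and 868) were close in both libraries. Members of the list describing SiglecF-high tumor-associated neutrophils of lung went both ways as well: Xbp1 (1.67) and Hif1a (1.17) were higher, Ccl3 lower, and Siglecf itself had 5 and 22 UMIs.

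Of 14 glycolysis and hypoxia genes past the limit, 11 had a ratio above 0, against 36.9% of all genes. Their median was 0.54, and 2 were at least 2-fold higher and 1 at least 2-fold lower, against 5.6% and 9.43% of all genes. The glucose transporter Slc2a1 stood at 10.3 and 31.4 CP100k (1.61, 1.03 to 2.24) and the hypoxia factor Hif1a at 20.6 and 46.5 (1.17, 0.76 to 1.61). Pkm (0.69), Gapdh (0.59) and Pgam1 (0.57) shared the direction, while Gpi1 (41.3 to 20.5; -1.01) had the opposite. Lipid genes had a median of -0.20: the droplet protein Plin2 was higher (14.0 to 28.3; 1.01, 0.51 to 1.56), the acyl-CoA synthetase Acsl1 lower (10.7 to 3.16; -1.76, -2.45 to -1.04), and Alox5ap, which serves leukotriene synthesis, 201 and 291. The fatty acid transporter Cd36 had 4.95 and 6.27 CP100k (0.34, -0.52 to 1.33).

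Among the 6 genes of the NADPH oxidase, which makes the oxidative burst, Ncf1 (46.2 to 19.5, log2 ratio -1.25) and Cybb were at least 2-fold lower. Of all genes, 9.43% were. Rac2 stood at 145 and 202. Cybb was carried by the granule cells: 40 of its 47 CM UMIs lay in them, and without them its log2 ratio was 1.05 (-0.03 to 2.39, from 7 CM and 128 TCM UMIs). Of the survival genes Mcl1, which neutrophils depend on, stood at 88.7 and 111 CP100k, and Bcl2a1b at 17.7 and 6.54 (-1.44), with reads that near-identical Bcl2a1 copies may share. The 6 survival genes past the limit had a median of -0.05, and the 8 S100 and antimicrobial ones 0.13. In each list 1 was at least 2-fold lower (Bcl2a1b and Camp), against 9.43% of all genes. Only 3 of 10 proliferation genes passed the limit, all below 0, as were 63.1% of all genes.

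**Figure D4:**
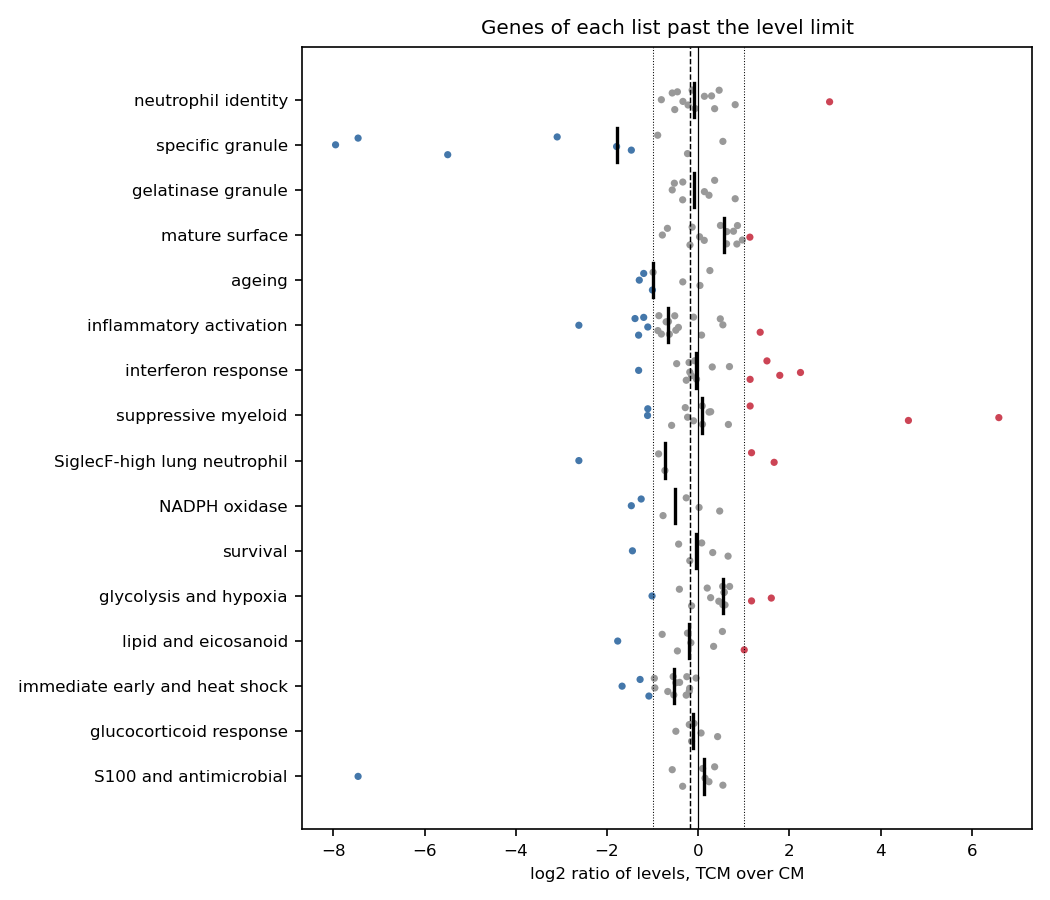
The log2 ratio (TCM over CM) of every gene past the level limit in the lists with at least 5 such genes. Points are genes, red at least 2-fold higher and blue at least 2-fold lower, bold bars list medians, and the dashed line the median of all genes (-0.17). The mature surface and glycolysis lists sit to the right of that line, and the ageing, activation and immediate early lists to the left.

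S100 share differed between the libraries, so levels were compared within ranges of it, an alternative added after the data had been seen. Of CM neutrophils, 41.3% had 5 to 10% of their UMIs from S100a8 and S100a9, and of TCM neutrophils 25.1%. At 20% or more stood 17 CM cells and 341 TCM cells (34.2%). Wfdc17 was higher in TCM in all 4 ranges, with log2 ratios of 4.59, 4.92, 3.52 and 7.96 from the lowest range to the highest, where CM had 1 UMI. Lrg1 (2.22 to 3.52) and Ifitm1 (1.61 to 2.81) were higher and Nr4a1 (-2.06 to -1.24) and Osm (-1.64 to -0.67) lower in all 4 as well.

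Other differences depended on the range and, at 20% or more, on the granule cells. Of the 17 CM cells there, 7 were granule cells, which held 62.3% of the range's CM UMIs but 18 of its 265 Il1b UMIs. Il1b had a log2 ratio of -0.89 (-0.98 to -0.80) at 5 to 10%, with levels of 1771 and 955 CP100k. At 20% or more its ratio was 0.12 (-0.05 to 0.31), with 561 and 612 CP100k, but without the granule cells -1.17 (-1.36 to -0.98), with 1386 and 615 CP100k. Only 10 CM cells were left there.

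These 7 CM cells and 1 TCM granule cell changed the sign or size of other ratios at 20% or more. Ccrl2 stood at 0.98 (0.31 to 1.75) with them and -0.05 (-0.81 to 0.83) without them, and Isg15 at 0.83 and -0.57. Cxcl3 stood at -0.047 and -1.39, Cxcl2 at -0.14 and -0.56, and Cxcr4 at -0.14 and -1.53. Wfdc17 (6.56), Lrg1 (1.99) and Ifitm1 (1.41) were still higher and Nr4a1 (-2.27) and Osm (-1.18) still lower in TCM without them. In the range of 5 to 10%, which held no CM granule cell, Cxcl3 was 1.93 and Cxcl2 -0.89. Cxcr4 was -1.13 at 5 to 10% and -1.34 at 15 to 20%. At 10 to 15% it did not differ, at -0.008 (-0.82 to 0.90), with 22.7 and 22.5 CP100k. At 15 to 20% without the granule cells, Isg15 was 0.61 (0.22 to 1.02) and Cxcl2 0.06 (-0.09 to 0.22). Retnlg, a gene of the rule, was higher at higher S100 shares in both libraries, from 151 to 1232 CP100k in CM and from 378 to 1593 in TCM.

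**Figure D5:**
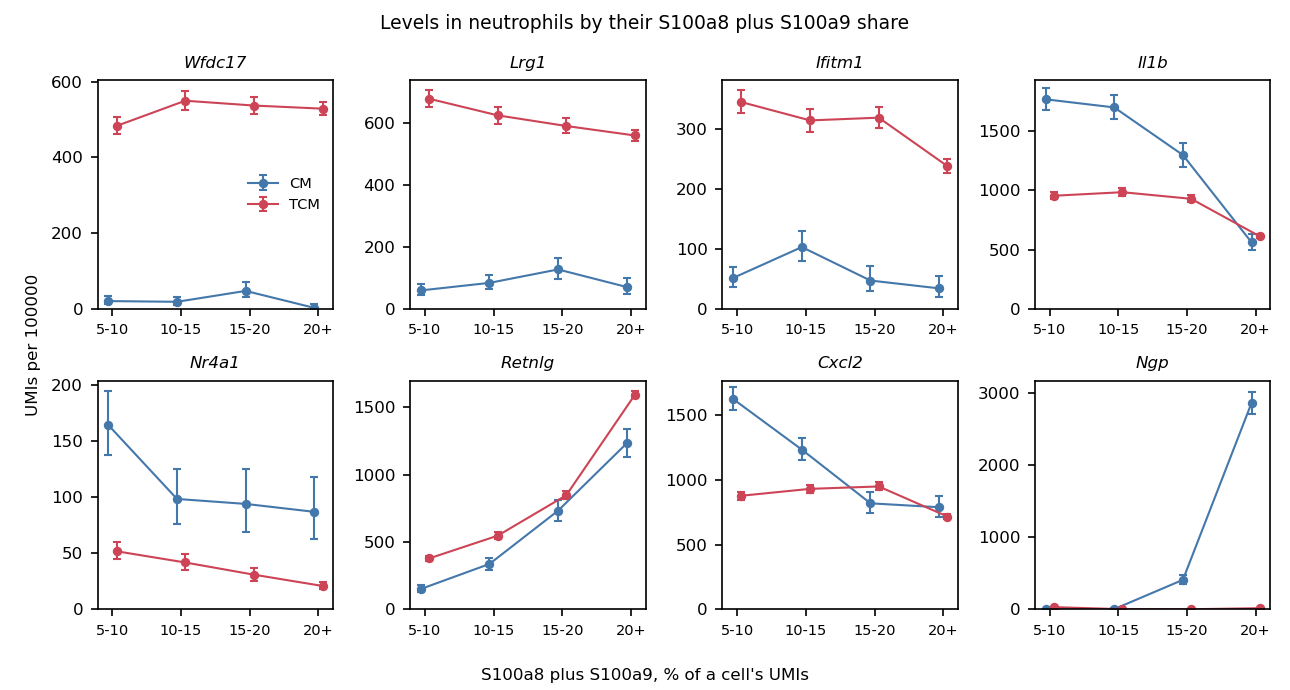
Levels of 8 genes (UMIs per 100000) in CM (blue) and TCM (red) neutrophils, split by the share of a cell's UMIs from S100a8 plus S100a9, with exact Poisson intervals of the sums. Wfdc17, Lrg1 and Ifitm1 of TCM lie above CM in all 4 ranges, whereas the Il1b lines meet at 20% or more, where 7 of the 17 CM cells are granule cells with 18 of the 265 Il1b UMIs.

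Within TCM, the 213 neutrophils with a Prok2 UMI (21.3%) were set against the other 785. This split was added after the data had been seen, and depth moves with it: their median was 2078 UMIs against 1661. Their median S100 share was 22.1% against 14.7%, and 59.6% against 27.3% of them were at 20% or more, values of genes that the rule used. Of 1853 genes compared, 14 (0.756%) were at least 2-fold higher with Prok2 and 26 (1.4%) at least 2-fold lower. The higher ones included granule and surface genes: Ngp (48.3 against 2.70 CP100k, or 14.1 without the 2 TCM granule cells, which held 160 of its 225 UMIs), Cd177 (31.8 against 10.4), Ly6g (49.8 against 18.9), Mmp8 (117 against 55.3) and Mmp25. The lower ones included interferon genes, namely Slfn5 (-1.52), Rsad2 (-1.24) and Ifi27l2a (148 to 71.2 CP100k; -1.06, -1.23 to -0.89), the lectin Clec4n (22.9 to 7.51) and Fgl2 (73.4 to 33.7; -1.12). A split by 1 gene of the same cells is a description and carries no test.

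Droplets that met both marker conditions but had less than 5% of UMIs from S100a8 and S100a9 numbered 73 in CM and 352 in TCM after the lineage genes. Wfdc17 stood at 18.3 CP100k in CM and 265 in TCM, Lrg1 at 45.0 and 451, Ifitm1 at 27.5 and 200, and Steap4 at 7.50 and 95.4. Il1b stood at 951 and 723. Cxcl2 hardly differed there (731 and 713, against 1193 and 836 in neutrophils), and Osm had the opposite direction (29.2 and 35.6, against 95.3 and 38.6). Cd74, a class II chaperone, stood at 169 and 66.9 CP100k in these droplets against 16.5 and 16.1 in neutrophils, and Sftpc at 116 and 856 against 112 and 242.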

How the data were processed

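Whole lung single-cell libraries, 1 per group (CM, TCM), were analysed. The authors made them with a 5-prime droplet kit (10x Genomics) and Cell Ranger on build mm10 (GRCm38.p6). The deposited matrices hold raw UMI counts per gene and barcode with no normalization, and their header names version 4 of Cell Ranger. Seurat is named in the submitters' notes. Gene coordinates came from GENCODE vM21.

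Cells had at least 500 UMIs, 200 genes and at most 10% mitochondrial UMIs. No doublet caller was run. Doublets were addressed only through the 5 lineage genes of the rule. Levels are UMI sums over the cells of a library, scaled to 100000 (CP100k). A sum of 0 was replaced by 3 counts and the ratio is then a bound. Genes with 3 counts or fewer in each library got no ratio. Genes with a mean of at least 5 CP100k were compared, and those with a log2 ratio of at least 1 in size were counted. With 1 library a group no test was possible, so no p-value was computed. Intervals are exact Poisson, Clopper-Pearson or conditional binomial. Named genes were the 10 largest and 10 smallest ratios (at least 10 cells where higher) and, in each of 30 lists, the 4 largest changes and members near 0, with others said to be chosen later. Some list members are counted but not reported by name here. Some further list members are given for context and were chosen with their values seen. The members and lists were chosen with earlier results of these data known. Outside RNA was estimated from 7 erythroid and club cell genes, with the profile of droplets of at most 50 UMIs. Alternatives changed the cell filters, the rule, the scaling, the level limit and the thinning, subtracted outside RNA or left out granule cells. Those within S100 ranges (also without granule cells), the Prok2 split and the smaller droplets were added after seeing the data. In the promoter table, 300 bases around each start were searched on both strands. The ratios and their intervals were tested on simulated sums, drawn as independent Poisson counts for each gene. UMIs gathered in a few cells, as for Camp and Ngp, were not simulated, so the intervals were not tested for that case. Python 3.11.15, numpy 2.4.6, scipy 1.17.1, pandas 2.3.3 and matplotlib 3.10.9 were used.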

Additional observations from a re-analysis of the deposited data

Results flagged for a closer look

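Droplets of at least 200 and under 500 UMIs were outside every comparison. Of these, 41 of 5013 in TCM (0.818%, 0.588 to 1.11%) and 7 of 2970 in CM (0.236%, 0.0948 to 0.485%) met the other conditions of the neutrophil rule, a signal in data not otherwise used that lay above the level of the control library.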

How the results depend on the processing

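No paired analysis was possible because each group had 1 library. The ratio of neutrophil shares was 6.67, and 8.52 with at least 10% of UMIs from S100a8 and S100a9. It was 4.86 against cells that had a Ptprc UMI or were neutrophils by the rule. The share of granule cells was 2.02% in CM and 0% in TCM with the second lineage list also left out. The specific granule median was -1.79, but -1.19 with a marker sum of at least 5, -2.36 with the 10% S100 limit, -0.055 with the second lineage list, -0.60 as a mean over members, -0.56 after thinning, -5.49 with a level limit of 20 CP100k (fewer genes) and 1.05, reversed, without the granule cells. The activation median was -0.65, and -0.78 with the second lineage list, -0.80 after thinning and -0.78 without the granule cells. The ageing median was -0.99, and -0.65 with the 10% S100 limit. At least 2-fold lower genes numbered 187, and 308 after thinning, where sums are smaller. With the limit of 20 CP100k, 35 were higher and 34 lower, from 626 genes. The other 73 values of these results lay within the main one's counting interval (for a median, that of its middle gene) or, for counts, within 1.5 times of it. Within S100 ranges, Ngp (3.07, a bound) and Camp (2.27) reversed at 5 to 10%, where 1 TCM cell held 110 of 115 Ngp and all 22 Camp UMIs. Cxcl3 (-0.047) and Rsad2 (1.45) reversed at 20% or more. Genes not past 2-fold in the main comparison changed sign too. Among them were Ccrl2 (0.98), Isg15 (0.83) and Il1b (0.12) at 20% or more. At 15 to 20% they included Isg15 (0.79, 0.40 to 1.21) and Cxcl2 (0.21, 0.06 to 0.37). The causes were not tested. No library could be left out in turn. Depth limits the CM side, with 155 cells and 242339 UMIs, and genes at 1 to 10 CM UMIs have wide intervals.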
